A study of Mus musculus with 16 samples.

Results

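The 10 genes described here make up the core of the Notch pathway as measured in mouse embryo heads: the ligands Dll1, Dll3, Jag1 and Jag2, the receptors Notch1, Notch2 and Notch3, the glycosyltransferase Lfng, and the target genes Hes1 and Hes5. They were taken by symbol from the gene counts, 10 of 24421 genes listed. All 10 were among the 14514 genes with enough counts to be tested, with 165 to 11438 reads per gene and library.

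The tissue was the head at embryonic day 8.5, cut from the first branchial arch to a little above the otic vesicle, and its RNA was sequenced. The 4 groups, each of 4 libraries, were embryos homozygous for an Ift88 null allele on the enriched diet (10 ppm folic acid), WT embryos on the enriched diet, Ift88 null embryos on the moderate diet (2 ppm) and WT embryos on the moderate diet. Every group came from mice kept for 3 generations on its diet, so no group was on any other diet. Ift88 encodes a subunit of the intraflagellar transport particle, which builds cilia, and Hedgehog signalling in the mouse depends on cilia. The null embryos are called mutants here. The design asks what loss of Ift88 and the folic acid level each do to gene expression, and whether the diet alters the effect of the genotype. The allele was null in the whole embryo, so an effect in a head library cannot be assigned to a cell type.

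Libraries held 19249433 to 44267434 counts on genes. Ift88 itself was at 2.86 to 8.61 CPM (reads relative to the scaled library total) in enriched mutants, against 17.9 to 20.8 CPM in enriched WT, and at 2.01 to 6.44 CPM in moderate mutants, against 9.30 to 20.9 CPM in moderate WT. The mutants thus kept some reads on the gene. Moderate WT replicate 2 was the library at 9.30 CPM. In 3 libraries, moderate mutant replicates 1 and 2 and moderate WT replicate 2, sex-linked counts went against the sex on the label, so the identity of these libraries is in doubt. Their summed floor plate markers, 12.1 and 12.4 CPM in the 2 mutants and 93.7 CPM in the WT library, lay within the range of the other libraries of their labelled genotype. The 8 neural progenitor markers, of which Hes5 is 1, were present in every library: their summed level was 1045 to 1252 CPM in enriched mutants, 1131 to 1209 CPM in enriched WT, 1142 to 1231 CPM in moderate mutants and 1181 to 1296 CPM in moderate WT. In whole heads, fewer cells of a type and less RNA per cell cannot be told apart.

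Notch signalling passes between touching cells. A Delta or Jagged ligand on the surface of a cell binds a Notch receptor on its neighbour, the receptor is cleaved, and its inner part enters the nucleus, where it joins the DNA-binding protein RBPJ and a Mastermind co-activator to switch on genes of the Hes and Hey families. In the neural tube Hes1 and Hes5 repress proneural genes and thereby Delta ligands, which keeps part of the cells as progenitors. Fringe enzymes such as Lfng add a sugar to the receptor and shift its preference between Delta and Jagged ligands.

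The promoters of Hes5 and Lfng are shown because they are the members whose promoter holds the motif GTGGGAA, the core of the sequence that RBPJ binds, and that of Jag2 because this gene had the largest difference between genotypes. Each line gives the 250 bases before the RefSeq transcription start (mouse build GRCm38.p6, equal to mm10), 5′ to 3′ on the strand of the gene, with matches of GTGGGAA on either strand in capitals. Of the 10 members, 9 had an entry in the RefSeq promoter table and Hes1 had none.
Hes5, chr4:154960673-154960922, plus strand: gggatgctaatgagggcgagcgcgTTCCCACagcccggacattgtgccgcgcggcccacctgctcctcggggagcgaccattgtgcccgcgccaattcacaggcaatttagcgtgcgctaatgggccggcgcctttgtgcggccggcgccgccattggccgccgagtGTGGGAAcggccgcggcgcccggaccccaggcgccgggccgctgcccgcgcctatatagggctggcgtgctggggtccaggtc
Lfng, chr5:140607091-140607340, plus strand: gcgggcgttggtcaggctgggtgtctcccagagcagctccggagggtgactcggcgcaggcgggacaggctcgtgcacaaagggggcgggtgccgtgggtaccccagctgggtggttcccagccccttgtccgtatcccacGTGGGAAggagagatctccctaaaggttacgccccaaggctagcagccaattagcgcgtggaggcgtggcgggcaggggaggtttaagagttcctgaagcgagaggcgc
Jag2, chr12:112929496-112929745, minus strand: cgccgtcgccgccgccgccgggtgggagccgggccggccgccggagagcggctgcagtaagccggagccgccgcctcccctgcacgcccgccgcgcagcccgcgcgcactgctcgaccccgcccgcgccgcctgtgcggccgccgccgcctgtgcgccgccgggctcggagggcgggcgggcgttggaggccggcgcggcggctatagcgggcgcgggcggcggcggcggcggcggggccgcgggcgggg
Hes5 held 2 matches, 226 to 220 bases and 83 to 77 bases before the start, and Lfng held 1, 109 to 103 bases before it. The windows of Jag2, Jag1, Dll1, Dll3, Notch1, Notch2 and Notch3 held no such letters, which says nothing of the factor. Among 32851 mouse promoters in the table, 5.42% held at least 1 match in the same window and 0.161% held at least 2. A match is a description of the sequence, and no binding was measured here.

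Per kilobase of exons, Hes5 was the most abundant member, with 33.4 ± 5.16 CPM per kb (SD over the 16 libraries). Notch3 followed at 30.0 ± 5.40, Hes1 at 27.2 ± 3.77, Lfng at 25.7 ± 3.17 and Jag1 at 21.3 ± 3.78 CPM per kb. Notch2 stood at 14.1 ± 1.73, Dll1 at 12.8 ± 2.17, Notch1 at 8.04 ± 1.15, Dll3 at 3.74 ± 0.819 and Jag2 at 2.68 ± 1.1 CPM per kb. Neighbours in this order overlapped in their ranges over the libraries at each step but that between Notch1 (6.13 to 10.1 CPM per kb) and Dll3 (2.53 to 5.05 CPM per kb). Dll3 and Jag2 were thus the scarce members, below all others in every library. The library kit keeps no strand, so reads on overlapping genes cannot be separated: an opposite-strand gene shares 31.8% of the exonic length of Hes5 and 20.6% of that of Dll1 in the GENCODE vM21 annotation, and a single such gene at most 7.50% of any other member. Notch1, the member at 7.50%, has another opposite-strand gene over 2.91% of its exonic length, and a same-strand gene shares 5.02% of Notch2.

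**Figure D1:**
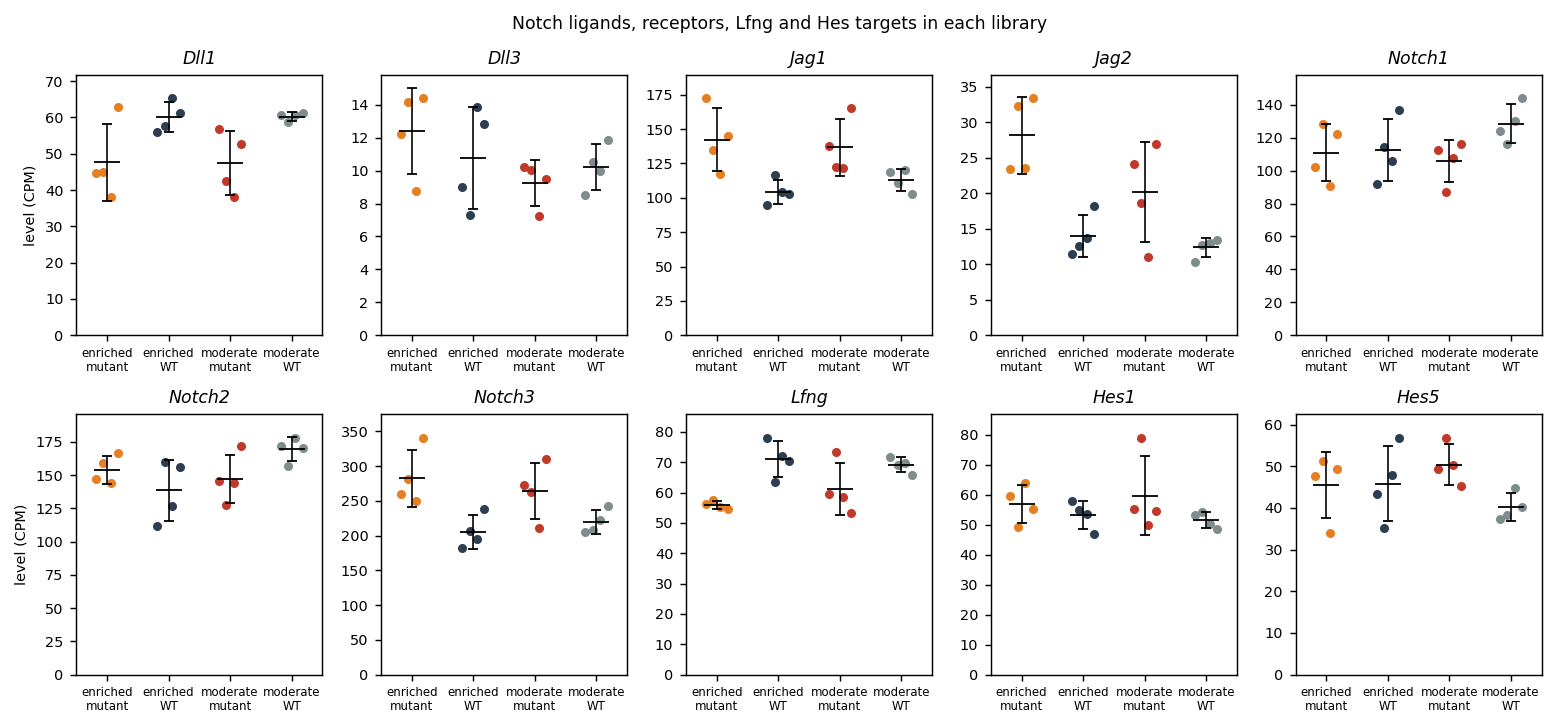
Level of each of the 10 genes in each library, in CPM on linear axes from 0, by diet and genotype. Points are the 4 libraries of a group (replicates 1 to 4 from left to right), the long bar is the group mean and the error bar its SD. Enriched mutants lie above enriched WT without overlap for Jag1, Jag2 and Notch3 and below it for Lfng, while the groups of Dll3, Notch1, Notch2, Hes1 and Hes5 overlap on that diet.

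Loss of Ift88 was accompanied by more RNA of the Jagged ligands and of Notch3, and by less of Dll1 and Lfng, with the Hes targets not past the threshold. On the enriched diet 4 of the 10 members passed an adjusted p of 0.05 (edgeR quasi-likelihood test, Benjamini-Hochberg adjustment over all 14514 genes), beside 31.2% of all genes tested: Jag1, Jag2 and Notch3 rose, beside 14.4% of all genes, and Lfng fell, beside 16.8%. On the moderate diet 0 of the 10 passed, beside 7.62% of all genes (4.79% higher, 2.83% lower). At an unadjusted p under 0.05 there were 6 members on the moderate diet, beside 3402 of 14514 genes. DESeq2 called 1 member beside 1572 genes, and limma-voom 0 beside 950. With the genotype effect averaged over both diets 5 of 10 passed, beside 35.8% of all genes: Jag1, Jag2 and Notch3 rose, beside 17.4%, and Dll1 and Lfng fell, beside 18.5%. At the adjusted threshold the shares called in either direction lie near those of all genes, so these counts are no result about the 10 as a set. The 6 of 10 at an unadjusted p under 0.05 on the moderate diet are a larger share than 3402 of 14514. The members were chosen with earlier results known, and that difference was not tested. The median log2 fold change of the 10 members was 0.11 on the enriched diet, 0.03 on the moderate diet and 0.10 in the average, against medians of -0.01 over all genes in each of them.

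**Figure D2:**
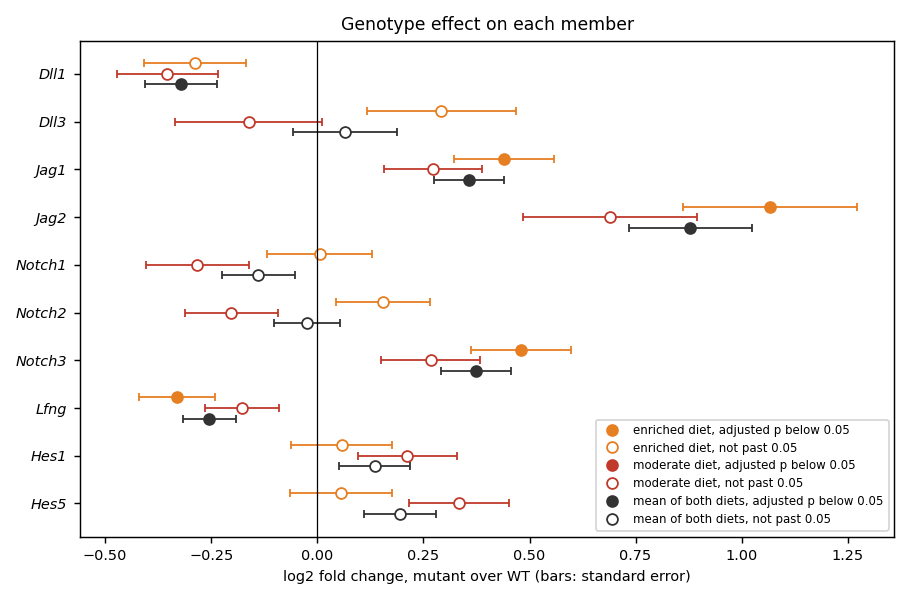
Log2 fold change of each member, mutant over WT, on the enriched diet, on the moderate diet and as the mean of both, with standard errors. Filled points passed an adjusted p of 0.05 over all genes tested. Jag2 lies farthest to the right (1.07 on the enriched diet), Dll1 and Lfng lie left of 0 on both diets, and the 2 diets' values fall on opposite sides of 0 for Dll3, Notch1 and Notch2.

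Jag2, a Jagged ligand, had the largest difference of the 10 in each genotype comparison. The gene lies at chr12:112907819-112929776 on the minus strand (mm10). On the enriched diet, mutant replicates 1 to 4 had 23.5, 32.3, 23.5 and 33.4 CPM (mean 28.2 ± 5.40, SD, n = 4), and WT replicates had 11.5, 12.6, 13.7 and 18.2 CPM (14 ± 2.93). The lowest mutant was above the highest WT library. Jag2 rose by 1.07 ± 0.21 on the log2 scale (SE; 95% interval 0.61 to 1.52; adjusted p = 0.00166), or 2.09-fold.

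On the moderate diet, mutants had 24.1, 18.7, 11 and 26.9 CPM of Jag2 (20.2 ± 7.01), and WT had 10.3, 12.7, 13.0 and 13.4 CPM (12.4 ± 1.39). Mutant replicate 3, at 11 CPM, lay within the WT range, and the other 3 mutants lay above it. Its log2 fold change was 0.69 ± 0.20 with an adjusted p of 0.0501, just outside the threshold. Without that library, which lay against the difference, it was 0.90 (adjusted p = 0.00171). Leaving out enriched mutant replicate 4, enriched WT replicate 1 or enriched WT replicate 4 also moved it past the threshold (0.69, 0.70 and 0.69, adjusted p 0.0487, 0.0495 and 0.0487). Over the 27 alternative fits it ranged from 0.46 to 0.90 and passed in 7. Averaged over the diets the log2 fold change was 0.88 ± 0.14 (adjusted p = 0.000302), called in 26 of 26 alternative fits.

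Jag1, the more abundant Jagged ligand (chr2:137081456-137116644, minus strand), rose less. Enriched mutants had 172, 135, 117 and 145 CPM (142 ± 23.1), and enriched WT had 94.9, 116, 104 and 103 CPM (104 ± 8.83). The groups did not overlap, though the lowest mutant and the highest WT library were close. Jag1 rose by a log2 fold change of 0.44 ± 0.12 (adjusted p = 0.0110). On the moderate diet mutants had 137, 122, 122 and 165 CPM (137 ± 20.5), and WT had 119, 111, 120.2 and 103 CPM (113 ± 8.19). These groups did not overlap either, but the log2 fold change of 0.27 ± 0.12 was not past the threshold (adjusted p = 0.164). The average over diets was 0.36 ± 0.08 (adjusted p = 0.00361).

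Dll1, the Delta ligand that neural progenitors on the way to becoming neurons put on their surface, went the other way. It lies at chr17:15367354-15376872 on the minus strand. Moderate mutants had 56.9, 42.5, 38.0 and 52.7 CPM (47.5 ± 8.78), and moderate WT had 60.6, 58.6, 60.7 and 61.1 CPM (60.3 ± 1.11). All 4 mutants lay below all 4 WT libraries. Dll1 had a log2 fold change of -0.35 ± 0.12 with an adjusted p of 0.0801, and -0.35 (adjusted p = 0.0355) without enriched mutant replicate 4. Over the 27 alternative fits it ranged from -0.44 to -0.27 and passed in 2.

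Enriched mutants had 44.6, 45.0, 38.0 and 62.9 CPM of Dll1 (47.6 ± 10.7), and enriched WT had 56.1, 57.8, 65.3 and 61.2 CPM (60.1 ± 4.08). Mutant replicate 4, at 62.9 CPM, lay among the WT libraries and the other 3 lay below them. With all 4 mutants the log2 fold change was -0.29 ± 0.12 (adjusted p = 0.0773), and -0.44 (adjusted p = 0.0115) without that library, which lay against the difference. Over the 27 alternative fits it ranged from -0.44 to -0.19 and passed in 2. Averaged over diets Dll1 fell by 0.32 ± 0.08 on the log2 scale (adjusted p = 0.00783). The SD over 8 libraries was 9.05 CPM in mutants and 2.77 CPM in WT, a difference in spread that was not tested. Without the 3 libraries whose sex label went against their counts, the average was -0.33 with an adjusted p of 0.0502.

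Dll3, a Delta family member that in the mouse does not activate Notch on neighbouring cells, was scarce and overlapped between genotypes (chr7:28293553-28302238, minus strand). Enriched mutants had 12.3, 14.2, 8.75 and 14.4 CPM (12.4 ± 2.62), and enriched WT had 9.01, 7.32, 13.8 and 12.8 CPM (10.8 ± 3.09). Moderate mutants ranged over 7.22 to 10.2 CPM (9.25 ± 1.38), and moderate WT over 8.5 to 11.8 CPM (10.2 ± 1.39). Its log2 fold change was 0.29 ± 0.18 with 10 ppm (adjusted p = 0.215) and -0.16 ± 0.17 with 2 ppm (adjusted p = 0.627).

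Among the receptors, Notch3 was higher in mutants. Notch3 is the receptor best known from the smooth muscle and pericytes of vessels and is also made by neural progenitors (chr17:32120820-32166852, minus strand). Enriched mutants had 259, 281, 249 and 341 CPM (283 ± 41.1), and enriched WT had 182, 207, 195 and 239 CPM (206 ± 24.4). The groups did not overlap, and the log2 fold change was 0.48 ± 0.12 (adjusted p = 0.00680). Moderate mutants had 273, 262, 211 and 310.0 CPM (264 ± 40.9), and moderate WT had 205, 207, 222 and 243 CPM (219 ± 17.3). Replicate 3 of the moderate mutants was again within the WT range while the other 3 were above it. Notch3 had 0.27 ± 0.12 there (log2 fold change, adjusted p = 0.175), and 0.36 (adjusted p = 0.0437) without replicate 3. Leaving out the mutant that lay among WT was bound to raise the value, and calls over all genes then rose from 1106 to 2107. Over the 27 alternative fits Notch3 ranged from 0.17 to 0.36 on that diet and passed in 2. Averaged over diets Notch3 rose by 0.37 ± 0.08 (adjusted p = 0.00267).

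Notch1, the receptor of neural progenitors and endothelium with the widest known roles (chr2:26457903-26516663, minus strand), did not pass the threshold. Enriched mutants had 102, 128, 90.8 and 122 CPM (111 ± 17.4), and enriched WT had 92.2, 115, 106 and 137 CPM (112 ± 18.8), ranges that overlapped over nearly their whole width. Moderate mutants had 112, 87.2, 108 and 116 CPM (106 ± 12.9), and moderate WT had 124, 116, 129.9 and 144 CPM (128.5 ± 11.8). For Notch1 the log2 fold change was 0.01 ± 0.12 with 10 ppm (95% interval -0.27 to 0.28; adjusted p = 0.980) and -0.28 ± 0.12 on the moderate diet (-0.55 to -0.01; adjusted p = 0.172).

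Notch2, which shares many tissues with Notch1 (chr3:98013527-98150361, plus strand), showed the same lack of a call. Enriched mutants had 147, 159, 144 and 166 CPM (154 ± 10.5), and enriched WT had 112, 159, 127 and 156 CPM (138 ± 23.1). Moderate mutants had 145, 127, 144 and 172 CPM (147 ± 18.3), and moderate WT had 172, 157, 178 and 171 CPM (169 ± 8.98). Mutants and WT overlapped on each diet. Notch2 had log2 fold changes of 0.15 ± 0.11 with 10 ppm (adjusted p = 0.302) and -0.20 ± 0.11 with 2 ppm (adjusted p = 0.281).

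Ratios between members were also taken within each library. The ratio of Notch3 to Notch1 CPM within a library was 2.19 to 2.79 in enriched mutants, against 1.74 to 1.97 in enriched WT, and 1.96 to 3.01 in moderate mutants, against 1.65 to 1.79 in moderate WT. In all 8 mutants but moderate replicate 3 this ratio exceeded that of all 8 WT libraries. That library, at 1.96, was above every moderate WT library and just below the highest enriched WT library, at 1.97. The ratio of Dll3 to Dll1 was 0.229 to 0.316 in enriched mutants, against 0.127 to 0.212 in enriched WT, and 0.179 to 0.237 in moderate mutants, against 0.140 to 0.194 in moderate WT. The ratio of Jag2 to Jag1 overlapped between genotypes (0.136 to 0.240 in enriched mutants, 0.109 to 0.177 in enriched WT, 0.0905 to 0.176 in moderate mutants and 0.0868 to 0.131 in moderate WT), as did that of Hes1 to Hes5 (0.963 to 1.88, 0.826 to 1.56, 0.993 to 1.39 and 1.12 to 1.43 in these groups). These 4 ratios were chosen with the values known and were not tested.

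Lfng, the fringe enzyme that modifies Notch receptors in the Golgi (chr5:140607320-140615545, plus strand), fell in mutants. Enriched mutants had 56.2, 57.7, 55.1 and 54.7 CPM (55.9 ± 1.33), and enriched WT had 78.1, 63.6, 71.9 and 70.3 CPM (71.0 ± 5.98). All enriched mutants lay below all enriched WT libraries and close to each other. Lfng fell, with a log2 fold change of -0.33 ± 0.09 (adjusted p = 0.0112). Moderate mutants had 59.5, 73.3, 58.5 and 53.1 CPM (61.1 ± 8.63), and moderate WT had 71.8, 69.0, 69.8 and 65.8 CPM (69.1 ± 2.50). Replicate 2 of the moderate mutants, at 73.3 CPM, was the highest library on that diet, and the other 3 mutants lay below WT. The log2 fold change of Lfng there was -0.18 ± 0.09 (adjusted p = 0.229), and -0.28 (adjusted p = 0.0389) without replicate 2, which lay against the difference. Over the 27 alternative fits it ranged from -0.29 to -0.12 and passed in 1. The average over diets was -0.25 ± 0.06 (adjusted p = 0.00511).

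The Hes genes, transcriptional repressors that respond to Notch in neural progenitors, did not pass the threshold in either direction. Hes5 (chr4:154960923-154962371, plus strand) was at 49.3, 56.9, 50.2 and 45.3 CPM in moderate mutants (50.4 ± 4.82), against 37.3, 38.3, 44.9 and 40.2 CPM in moderate WT (40.2 ± 3.36). These groups did not overlap, by a margin of less than 1 CPM. On the enriched diet mutants had 47.5, 51.1, 33.9 and 49.4 CPM (45.5 ± 7.85), and WT had 43.3, 35.2, 47.8 and 56.8 CPM (45.8 ± 9.03), which overlapped throughout. Hes5 had log2 fold changes of 0.06 ± 0.12 with 10 ppm (adjusted p = 0.752), 0.33 ± 0.12 with 2 ppm (adjusted p = 0.0959) and 0.19 ± 0.08 in the average (adjusted p = 0.0835). The average passed without moderate mutant replicate 1 (0.27, adjusted p = 0.0285), without enriched mutant replicate 3 (0.25, adjusted p = 0.0196) and without enriched WT replicate 4 (0.24, adjusted p = 0.0276). With sex read from counts in place of labelled sex, Hes5 passed in the average (0.23, adjusted p = 0.0429) and on the moderate diet (0.39, adjusted p = 0.0471). Hes5 thus passed in 4 of 26 alternative fits in the average and in 1 of 27 on the moderate diet. With no sex term it passed in neither.

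Hes1 (chr16:30064384-30067796, plus strand) was at 59.6, 49.2, 63.8 and 55.2 CPM in enriched mutants (57.0 ± 6.22), against 58.0, 55.0, 53.6 and 46.9 CPM in enriched WT (53.4 ± 4.67). Moderate mutants had 55.4, 79.1, 49.8 and 54.6 CPM (59.7 ± 13.1), and moderate WT had 53.3, 54.2, 50.1 and 48.5 CPM (51.5 ± 2.66). Replicate 2 of the moderate mutants stood well above the other 15 libraries. For Hes1 the log2 fold change was 0.06 ± 0.12 on the enriched diet (95% interval -0.21 to 0.32; adjusted p = 0.744) and 0.21 ± 0.12 on the moderate diet (-0.05 to 0.47; adjusted p = 0.292). The intervals leave room for changes of the size seen in Jag1 or Notch3 on the moderate diet, so these data do not show that the Hes genes stayed the same.

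Counted by overlap, 3 of the 10 members had groups that did not overlap on the moderate diet (Dll1 lower, Jag1 and Hes5 higher in mutants), beside 15.6% of all genes (8.5% higher, 7.06% lower). On the enriched diet there were 4 (Jag1, Jag2 and Notch3 higher, Lfng lower), beside 23.7% of all genes (11.2% higher, 12.5% lower). Of all members, Jag1 was separated in the same direction on both diets. With all 8 mutants set against all 8 WT libraries none of the 10 was free of overlap, beside 4.44% of all genes (2.51% higher, 1.93% lower). Between the diets none was free of overlap in mutants, beside 3.2% of all genes (1.46% higher and 1.74% lower on the enriched diet), or in WT, beside 2.52% (1.47% higher and 1.05% lower).

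Other groups of genes moved with genotype in the same libraries. Their lists were chosen with earlier results of these data known, so their counts beside the shares of all genes are descriptions only. The 10 genes of the response to low oxygen rose together, 10 of 10 past the threshold on each diet. Beside them 14.4% of all genes were higher on the enriched diet and 4.79% on the moderate diet. Their summed level was 2822 to 3635 CPM in enriched mutants, 1102 to 1589 CPM in enriched WT, 1528 to 4280 CPM in moderate mutants and 982 to 1113 CPM in moderate WT. The lowest mutant was moderate replicate 3, at 1528 CPM, which was also the moderate mutant with the lowest Jag2 and Notch3. It had the lowest Dll1, Dll3, Jag1 and Hes1 of that group as well. The highest sum, 4280 CPM, was in moderate mutant replicate 2, where Jag2 (18.7 CPM) and Notch3 (262 CPM) were next to the lowest of the group. The enriched mutant with the highest sum, 3635 CPM, had the lowest Jag2 of its group, at 23.5 CPM. A relation between this sum and the Notch genes was not tested. The 6 floor plate markers fell, 6 of 6 on each diet, beside 16.8% of all genes lower on the enriched diet and 2.83% on the moderate diet. They summed to 10.8 to 16.1 CPM in enriched mutants, against 86.9 to 99.2 CPM in enriched WT, and to 12.1 to 12.4 CPM in moderate mutants, against 88.2 to 96.1 CPM in moderate WT. Placode and surface ectoderm markers, 9 genes, summed to 255 to 289 CPM in enriched mutants, 231 to 282 CPM in enriched WT, 279 to 304 CPM in moderate mutants and 229 to 248 CPM in moderate WT, with 2 of 9 rising on the enriched diet (beside 14.4% of all genes higher) and 3 of 9 on the moderate diet (beside 4.79%). The part of these genes' tissues or states in the results for the Notch genes was not tested.

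Other cell types use Notch too, and their lists were counted in the same way. The 13 endothelial markers summed to 439.5 to 481 CPM in enriched mutants, 451 to 517 CPM in enriched WT, 473 to 533 CPM in moderate mutants and 413 to 493 CPM in moderate WT. On the enriched diet 2 rose and 5 fell, or 7 of 13 beside 31.2% of all genes. On the moderate diet 2 of 13 rose and 0 fell, beside 4.79% of all genes higher. The part of endothelium in the results for the Notch genes was not tested. The 10 early neuron markers summed to 176 to 343 CPM in enriched mutants, 187 to 303 CPM in enriched WT, 169.5 to 246 CPM in moderate mutants and 205 to 285 CPM in moderate WT. In any genotype comparison 0 of 10 passed, beside 31.2% of all genes on the enriched diet, 7.62% on the moderate diet and 35.8% in the average. Presomitic mesoderm and somites use Dll1, Dll3 and Lfng, which are on their list of 12 genes. The list summed to 106 to 135 CPM in enriched mutants and 132 to 155 CPM in enriched WT. On the moderate diet it summed to 107 to 130 CPM in mutants and 141 to 144 CPM in WT. Of its markers, Msgn1 was at 0 in all moderate mutants, in all WT libraries and in all but 1 enriched mutant, at 0.0530 CPM. Tbx6, Mesp2 and T were each under 1 CPM in every library. Of the 12 genes on that list, 8 could be tested, and 2 rose (Tbx6 and Tcf15) and 2 fell (Lfng itself and Meox1) on the enriched diet. Beside them 14.4% of all genes were higher and 16.8% lower. The part of this tissue in the results for Dll1, Dll3 and Lfng was not tested. Head mesenchyme, neural crest, erythroid, cardiomyocyte and yolk sac lists had 3 of 7, 1 of 6, 1 of 8, 0 of 4 and 0 of 6 tested genes past the threshold on the enriched diet, and 2 of 7, 0 of 6, 0 of 8, 0 of 4 and 0 of 6 on the moderate diet. The shares of all genes were 31.2% on the enriched diet and 7.62% on the moderate diet. The yolk sac markers summed to 110.5 CPM in enriched mutant replicate 4, against 4.85 to 7.11 CPM in the other enriched mutants, 7.51 to 28.1 CPM in enriched WT, 4.78 to 32.2 CPM in moderate mutants and 9.03 to 21.2 CPM in moderate WT. The same library had the lowest erythroid sum, 720.7 CPM, and the highest Jag2 and Notch3. Without it the enriched log2 fold changes were 1.02 for Jag2 and 0.38 for Notch3, both still past the threshold, and the part of these tissues was not tested.

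Beyond the 10 members, 57 other genes of the pathway were listed and 55 could be tested (Hes2 and Hes7 were too low). On the enriched diet 6 rose and 5 fell, or 11 of 55 beside 31.2% of all genes. On the moderate diet 0 rose and 1 fell, or 1 of 55 beside 7.62%. Averaged over diets 11 rose and 8 fell, or 19 of 55 beside 35.8% of all genes. The median log2 fold change of the 55 was 0.15, -0.03 and 0.04 in these comparisons, against -0.01 over all genes in each. The counts depended on single libraries: the enriched count of 11 was 6 without enriched WT replicate 3, the moderate count of 1 was 4 without moderate mutant replicate 3 and 2 without enriched mutant replicate 3, and the averaged count of 19 was 12 without moderate mutant replicate 1.

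Of the 6 enzymes that put sugars on Notch, other than Lfng, 4 fell and 1 rose in the average, beside 18.5% of all genes lower and 17.4% higher. Mfng, another fringe enzyme, was at 21.3, 20.4, 16 and 17.9 CPM in enriched mutants, against 29.5, 22.6, 30.2 and 28.2 CPM in enriched WT. In moderate mutants it was at 20.5, 18.1, 16.9 and 17.7 CPM, against 23.7, 23.9, 27.3 and 29.1 CPM in moderate WT. All 8 mutants lay below all 8 WT libraries. Mfng had log2 fold changes of -0.50 ± 0.11 with 10 ppm (adjusted p = 0.00322), -0.51 ± 0.10 with 2 ppm (adjusted p = 0.00701) and -0.50 ± 0.07 in the average (adjusted p = 0.000127). Rfng, the remaining fringe enzyme, averaged 21.6 ± 2.09 CPM in the 8 mutants and 25.1 ± 0.988 CPM in the 8 WT libraries. Its average log2 fold change was -0.20 ± 0.06 (adjusted p = 0.0138), a call lost without moderate mutant replicate 1 (-0.18), moderate WT replicate 1 (-0.18), moderate WT replicate 2 (-0.17) or enriched mutant replicate 2 (-0.17). So all 3 fringe genes were lower in mutants in the average over diets. Gxylt2, a xylosyltransferase, rose on the enriched diet at a low level (1.75 ± 0.268 CPM in mutants, 0.888 ± 0.178 CPM in WT; log2 fold change 1.07 ± 0.23, adjusted p = 0.00278). Pofut1, which adds the fucose that fringe enzymes extend, fell by 0.15 ± 0.05 on the log2 scale in the average (adjusted p = 0.0149), a call lost without moderate mutant replicate 1 or enriched WT replicate 2 (-0.13 each).

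Of the other Hes and Hey genes and the feedback inhibitor Nrarp, 1 of 6 tested rose and 1 fell in the average. Beside them 17.4% of all genes were higher and 18.5% lower. Heyl, a repressor of the Hey group, was at 2.65, 2.64, 1.43 and 3.02 CPM in enriched mutants, against 4.74, 5.15, 7.25 and 8.57 CPM in enriched WT, without overlap. It was at 4.30, 2.50, 3.52 and 4.00 CPM in moderate mutants, against 3.79, 5.76, 6.10 and 7.39 CPM in moderate WT, where the ranges overlapped. Heyl had log2 fold changes of -1.30 ± 0.24 with 10 ppm (adjusted p = 0.00128), -0.70 ± 0.23 with 2 ppm (adjusted p = 0.0752) and -1.004 ± 0.17 in the average (adjusted p = 0.000321). Hes3, made around the boundary of midbrain and hindbrain, averaged 42.2 ± 6.39 CPM in the 8 mutants and 34.0 ± 4.65 CPM in the 8 WT libraries. Its average log2 fold change was 0.30 ± 0.10 (adjusted p = 0.0277), and 0.26 (adjusted p = 0.0761) without moderate mutant replicate 1.

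Of 5 other ligands and receptors 2 rose in the average, beside 17.4% of all genes higher. Notch4, an endothelial receptor, averaged 16.1 ± 3.83 CPM in the 8 mutants and 12.9 ± 2.01 CPM in the 8 WT libraries (average log2 fold change 0.35 ± 0.11, adjusted p = 0.0233), a call lost without enriched mutant replicate 4 (0.25, adjusted p = 0.0672). Dll4, an endothelial ligand, had 0.35 ± 0.13 (adjusted p = 0.0491), a call at the edge of the threshold that 11 of 26 alternatives kept: it was lost without any single one of 10 libraries, with 0.25 (enriched mutant replicate 1) to 0.39 (enriched mutant replicate 2). Mib2, a ubiquitin ligase for ligands, rose on the enriched diet, at 34.2 ± 6.45 CPM in enriched mutants and 25.3 ± 2.51 CPM in enriched WT (log2 fold change 0.48 ± 0.10, adjusted p = 0.00325). The Mastermind co-activator Maml3 rose by 0.53 ± 0.16 on the enriched diet (adjusted p = 0.0179; 0.48 and adjusted p = 0.0551 without enriched mutant replicate 4) and by 0.37 ± 0.11 in the average (adjusted p = 0.0152). Rbpj itself had a log2 fold change of 0.41 ± 0.16 on the enriched diet with an adjusted p of 0.0651, a gene named for its role and outside the rule for naming. Among the 10 genes of receptor cleavage, 2 rose and 2 fell in the average, beside 17.4% of all genes higher and 18.5% lower. Adam17, a protease that cuts near the cell surface, rose by 0.16 ± 0.04 on the log2 scale (adjusted p = 0.00658). The gamma-secretase subunits were split: Ncstn had 0.13 ± 0.05, Aph1a -0.20 ± 0.06 and Aph1b -0.21 ± 0.06. These 3 calls were lost without single libraries: Ncstn without moderate mutant replicate 4 (0.11), enriched mutant replicate 4 (0.12) or enriched WT replicate 2 (0.12), Aph1b without moderate mutant replicate 1 (-0.18), moderate WT replicate 2 (-0.16) or enriched WT replicate 3 (-0.18), and Aph1a without any of 7 libraries (-0.18 to -0.16). Among 11 genes of negative regulation and receptor turnover, 1 rose and 1 fell in the average, beside 17.4% of all genes higher and 18.5% lower. Bend6, a co-repressor that binds RBPJ, rose by 0.56 ± 0.16 on the log2 scale (adjusted p = 0.0115). Dtx2, a Deltex protein that binds the inner part of Notch, fell by 0.21 ± 0.06 (adjusted p = 0.0184). The call of Dtx2 was lost without moderate mutant replicate 1 (-0.19), moderate WT replicate 4 (-0.18), enriched mutant replicate 2 (-0.17) or enriched WT replicate 3 (-0.17).

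**Figure D3:**
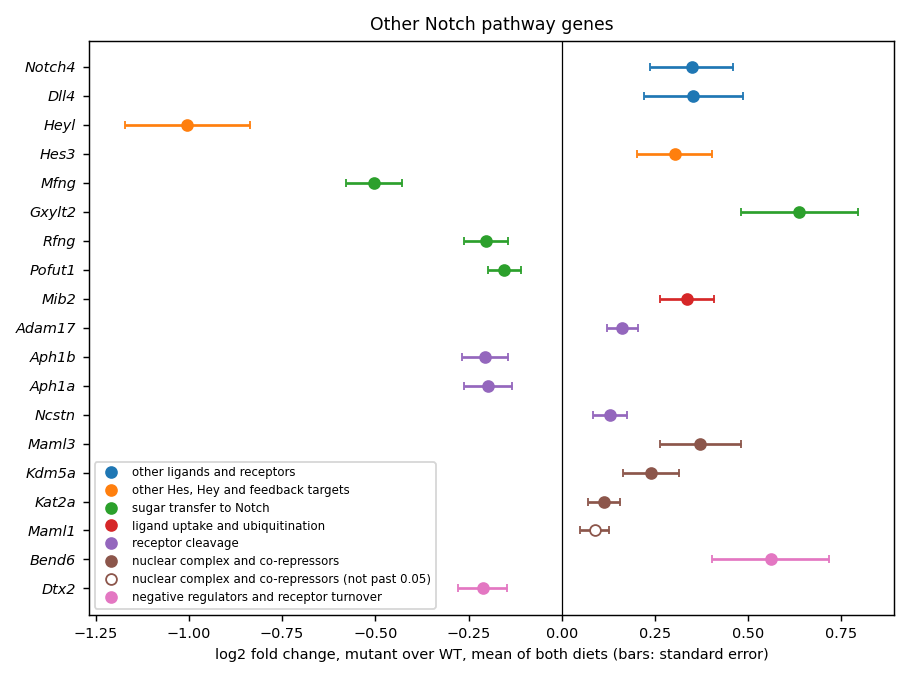
Log2 fold change, mutant over WT, averaged over both diets, of 18 other Notch pathway genes past an adjusted p of 0.05 in that average and of Maml1 (past it on the enriched diet alone), with standard errors. Colours give the role. Mfng, Rfng and Pofut1 of the sugar transfer group lie left of 0, and Heyl (-1.004) lies farthest left.

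Proneural factors are among the genes that Hes proteins repress. Of these, Neurog3 was under 1.2 CPM in every library and lower in mutants, at 0.0895 ± 0.0810 CPM over the 8 mutants and 0.640 ± 0.305 CPM over the 8 WT libraries (average log2 fold change -2.83 ± 0.42, adjusted p = 0.000119).

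The diet comparison asked whether 10 ppm against 2 ppm folic acid altered the same genes. In mutants 0 of 10 members passed, beside 0% of all genes (0 of 14514 in edgeR, 3 in DESeq2 and 0 in limma-voom; 1565 at an unadjusted p under 0.05, of which 0 were members). The largest values were in Jag2, at 28.2 ± 5.40 CPM in enriched mutants and 20.2 ± 7.01 CPM in moderate mutants (log2 fold change 0.40 ± 0.20, 95% interval -0.05 to 0.85, adjusted p = 0.480), and Dll3, at 12.4 ± 2.62 CPM in enriched mutants and 9.25 ± 1.38 CPM in moderate mutants (0.34 ± 0.18, -0.05 to 0.72, adjusted p = 0.488). The 95% intervals of the 10 members reached from -0.48 (Hes5) to 0.85 (Jag2). In WT 0 of 10 passed, beside 0% of all genes (0 in edgeR, 1 in DESeq2 and 0 in limma-voom; 354 at an unadjusted p under 0.05). The member among those 354 was Notch2, at 138 ± 23.1 CPM in enriched WT and 169 ± 8.98 CPM in moderate WT (-0.29 ± 0.12, 95% interval -0.55 to -0.04, unadjusted p = 0.0233, adjusted p = 0.967). The intervals in WT reached from -0.55 (Notch1 and Notch2) to 0.51 (Jag2). For the genes that differed by genotype, the diet intervals in mutants were -0.19 to 0.33 for Jag1, -0.19 to 0.33 for Notch3 and -0.33 to 0.06 for Lfng. In WT they were -0.37 to 0.17 for Jag1, -0.42 to 0.13 for Notch3 and -0.19 to 0.22 for Lfng.

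The difference between the genotype effects on the enriched and on the moderate diet was tested as an interaction. None of the 10 passed, beside 0% of all genes (0 in edgeR, DESeq2 and limma-voom; 1401 at an unadjusted p under 0.05, 1 of them a member). Notch2 had the smallest p of the members, with a difference of 0.36 ± 0.16 (95% interval 0.01 to 0.70, unadjusted p = 0.0353, adjusted p = 0.502). For Jag2 the difference was 0.38 ± 0.29 (-0.26 to 1.01), for Jag1 0.17 ± 0.16 (-0.20 to 0.53), for Notch3 0.21 ± 0.17 (-0.15 to 0.58) and for Lfng -0.15 ± 0.12 (-0.43 to 0.12). That these 4 passed on the enriched and not on the moderate diet is therefore no sign that the diets differ.

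Across the 16 libraries some members varied together. Between Jag2 and Notch3 Pearson's r of log2 CPM was 0.91, and 0.89 after the mean of each group was subtracted, so the pair also varied together among libraries of the same group. Notch1 and Hes1 ran against each other (r = -0.835, and -0.831 within groups), and Notch1 and Notch2 together (0.787 and 0.804). These are descriptions over 16 libraries that share depth and composition effects, with no test.

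**Figure D4:**
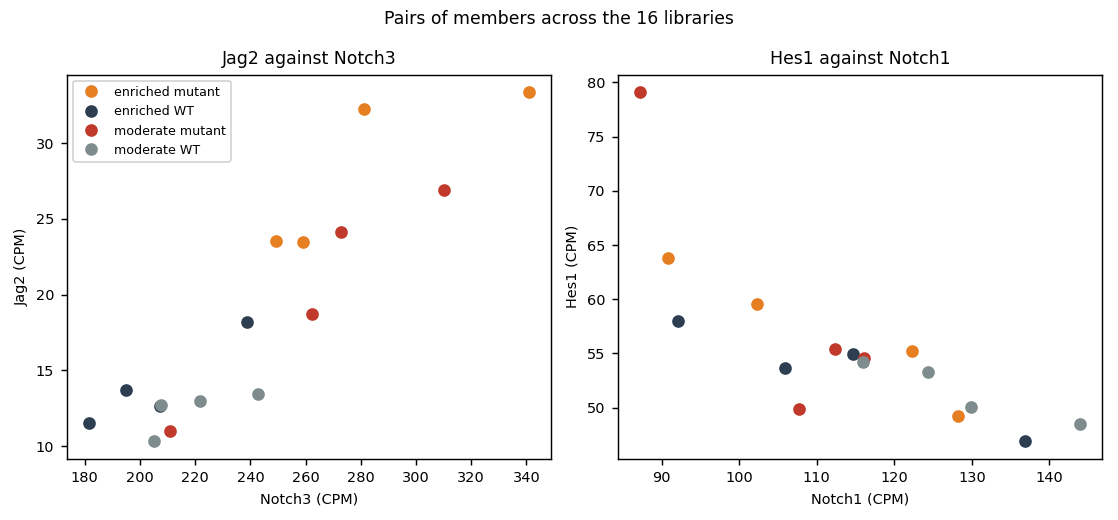
Jag2 against Notch3 and Hes1 against Notch1, in CPM, each point a library, coloured by diet and genotype; the axes do not start at 0. Jag2 and Notch3 climb together, with moderate mutant replicate 3 (11 and 211 CPM) among the WT libraries, and Hes1 is highest (79.1 CPM) in the library with the lowest Notch1 (87.2 CPM).

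Among all other tested genes, the one most like Jag2 in its pattern was Cacna1h (r = 0.960 over 16 libraries, 0.915 within groups), and the one most like Notch3 was Pitpnc1 (0.982 and 0.968). For Jag1 it was Dip2c (0.932 and 0.866), for Dll1 Fezf2 (0.949 and 0.902), for Dll3 Myt1 (0.90 and 0.902) and for Lfng Ccdc3 (0.892 and 0.692). For Notch1 it was Fat4 (0.969 and 0.967) and for Notch2 Ep300 (0.937 and 0.947). Hes1 was most like Rpp25 (0.897 and 0.885), and Hes5, the member with the least similar partner, was most like Snhg8 (0.816 and 0.847).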

How the data were processed

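RNA was sequenced from 16 mouse embryo heads in 4 groups of 4. Per the labels' protocols, the TruSeq RNA v2 kit was used for library preparation, without strand information. Per the submitters' processing notes, the authors used FastQC 0.11.5, TopHat2 2.1.1, build mm10, SAMtools 1.8, HTSeq 0.9.1 and DESeq2 1.22.2; the sources used here do not give counting mode, strand option or annotation. The deposited values are raw counts per gene symbol. The 5 summary lines were left out; reads on no feature came to 13.7 to 17.0% and ambiguous reads to 1.20 to 1.39%. No label gives litters, so the spread behind each p-value is that between libraries that may share litters.

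Genes reaching 10 counts in 4 or more libraries (14514 of 24421, or 59.4%) were tested with edgeR 4.0.16 (limma 3.58.1, R 4.3.3) on TMM-scaled counts, with a quasi-likelihood model over all 16 libraries of group and labelled sex. P-values were adjusted by Benjamini-Hochberg across the genes tested (threshold 0.05), and intervals are 95%. CPM are counts relative to the TMM-scaled library total, and log2 CPM for correlations used a prior count of 2. Coordinates and exonic lengths are from GENCODE vM21 on mm10, matched by symbol; the annotation behind the counts may differ. The script was tested on simulated data. No 2 libraries of a group agreed within sampling noise, so each counted as 1 sample.

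The members and lists were chosen with earlier results of these data known. All members are named. Of each other list, up to 4 genes past the threshold in a genotype contrast are named, those with the smallest p first, and exceptions are marked. The list of proneural factors is not reported here as a whole. For each member the gene with the highest correlation is given, passing over predicted symbols. Replicate numbers shared between groups pair samples only if every same-numbered pair correlates over 0.1 in its deviations from the group means (2000 genes). This held between enriched and moderate mutants (0.112, 0.133, 0.222 and 0.155) and not between the other groups compared (-0.384 to 0.405), and the labels give no shared litter or batch. Pairs with different numbers were not correlated, so the rule can neither show nor exclude a pairing. Alternatives were other scalings and tests (DESeq2 1.42.0, limma-voom), filters, sex terms, the replicate number as a block, the compared groups alone, and leaving out libraries.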

Additional observations from a re-analysis of the deposited data

How the results depend on the processing

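The calls on the enriched diet for Jag1, Jag2, Notch3 and Lfng held in 27 of 27 alternative fits, and in the average over diets those for the same 4 genes held in 26 of 26 and that for Dll1 in 25 of 26. The count of members called on the moderate diet, 0, was 1 with DESeq2 or with no filter on low counts (Jag2 each), 1 with sex read from counts (Hes5), 3 with the replicate block (Dll1, Jag2 and Notch3), and 0 to 2 without single libraries. It was 4 to 5 on the enriched diet (4) and 4 to 6 in the average (5) over all alternatives. With the replicate block the counts were 5 and 5. In mutants, where the replicate numbers met the correlation rule though no label gives a pairing, the block left the diet count at 0. It changed no other call of a diet or interaction comparison. Calls over all genes were fewest without the 3 libraries of contradicted sex, at 105 against 1106 on the moderate diet and 2964 against 5202 in the average; the other pathway genes called were then 0 and 5. With only the groups compared in the fit, the moderate count over all genes was 719, and pathway counts were 2 (moderate) and 6 (enriched); with DESeq2 and the block the moderate pathway counts were 4 and 3. Leaving out single libraries gave 538 to 2107 calls on the moderate diet (the highest without moderate mutant replicate 3, the lowest without moderate mutant replicate 1).

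Directions turned in uncalled values near 0. With no sex covariate these were Notch1 (-0.02) and Hes5 (-0.01) on the enriched diet and Dll3 (0.08) for diet in WT; with sex read from counts, Notch1 (-0.02) on the enriched diet. Without the libraries of contradicted sex they were Notch2 in the average (0.01), Notch1 (-0.08), Notch2 (-0.03) and Hes1 (0.19) for diet in mutants, and Hes1 for the interaction (0.07). With no scaling beyond the library total, Hes1 for diet in mutants was 0.01; with limma-voom, Jag2 for diet in WT was -0.02; with only the groups compared, Lfng for diet in WT was -0.02. Leaving out single libraries gave these ranges: for genotype, Notch1 -0.05 to 0.11 on the enriched diet and Notch2 -0.06 to 0.05 in the average; for diet in mutants, Dll1 -0.16 to 0.05, Notch1 -0.03 to 0.13, Hes1 -0.10 to 0.12, Jag1 -0.04 to 0.20 and Notch3 -0.01 to 0.16; for diet in WT, Lfng -0.03 to 0.08, Jag2 -0.08 to 0.10, Dll3 -0.31 to 0.04 and Hes5 -0.03 to 0.16; for the interaction, Hes1 -0.23 to 0.03 and Dll1 -0.09 to 0.17. The cause of these turns was not tested. No scaling moved the median of all genes by over 0.1. Depth limits Dll3 and Jag2 most, with 165 and 215 reads in their lowest library.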
